A study of Homo sapiens with 60 samples.

Results

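Ethanol extracts of 2 medicinal plants were compared in HT29, a human colorectal adenocarcinoma cell line. Coptidis Rhizoma is the dried rhizome of Coptis species, best known for berberine and related isoquinoline alkaloids. Zizyphi Fructus is the jujube fruit. The comparison uses 6 of the 60 RNA-seq libraries of the series, chosen by the extract and dose on their labels. Cells received Coptidis Rhizoma at 12.8, 64 or 320 µg/mL, or Zizyphi Fructus at 20, 100 or 500 µg/mL, for 24 h, with 1 library per dose. The doses rise in 5-fold steps in both extracts, and the low, medium and high levels were paired by step, so the concentrations within a pair differ. The series' design text says that an extract whose IC20 lay below the usual top dose was given at its IC20 and at the 1/5 and 1/25 dilutions. By that rule 320 µg/mL, below the 500 µg/mL of Zizyphi Fructus, would be an IC20 dose and 500 µg/mL would not. At the high dose, the kind of extract and a dose set by an IC20 therefore cannot be told apart. Both extracts carry codes of the same sample set. The 3 vehicle libraries (0.1% DMSO per the labels, 2% in the design text) carry another code set and are given here as levels only. HT29 cells are a single line, and no label says that any of these libraries came from separate cultures.

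HT29 cells keep some features of intestinal epithelium and can express aryl hydrocarbon receptor (AhR), a ligand-activated transcription factor that induces cytochrome P450 genes of family CYP1. The integrated stress response is a second pathway that the results turn on. In it, kinases that sense amino acid shortage, unfolded protein, haem or double-stranded RNA slow translation, while the factor ATF4 is made more and induces genes for amino acid synthesis, transport and tRNA charging. Mitochondria hold their own small genome, transcribed as long precursors that are cut into 2 ribosomal RNAs, messenger RNAs and transfer RNAs. In bulk RNA, a change in the number of cells of one kind and a change in the RNA per cell cannot be told apart.

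The 6 libraries held 18.02 to 27.08 M (mega) counts, so that 1 CPM (count per M counts) stands for about 18 to 27.1 counts. All 10 epithelial identity markers were detected in every library, and 10 stromal and endothelial markers summed to 3.02 to 5.03 CPM. The epithelial markers summed to 8850 CPM by total counts in the high-dose Coptidis Rhizoma library and to 10700 to 12300 CPM in the other 5, and at the high dose 2 of the 10 were more than 2-fold lower, with a median log2 ratio of -0.56. The 10 leukocyte markers summed to 1490 to 1830 CPM by total counts, of which LYZ, also an epithelial product, made up 1480 to 1820 CPM, and 2 to 5 of them were at 0 counts. The low-dose and high-dose Coptidis Rhizoma libraries stood apart in mitochondrial transcripts. These made up, with Coptidis Rhizoma, 15.2%, 6.61% and 3.44% of counts from the low to the high dose, against 7.77%, 7.24% and 9.15% with Zizyphi Fructus. The low-dose library had the highest share of all 60 libraries and the high-dose library the lowest, and the high-dose Zizyphi Fructus library lay 4.83 median absolute deviations above the median of the series. Ribosomal protein genes took 5.19%, 5.11% and 6.7% of counts against 5.64%, 5.68% and 5.18%, and the high-dose Coptidis Rhizoma share lay 9.21 such deviations above the median. The part of these shares in the results was not tested. The mean mitochondrial share of the 3 Coptidis Rhizoma libraries was 8.42% against 8.05% with Zizyphi Fructus (exact permutation test, two-sided p = 1.0, with 0.1 the smallest value that 3 against 3 allows). CPM below are scaled by TMM over the 6 libraries, and log2 ratios at a dose level are taken after adding 0.5 CPM, which understates the change of low genes.

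The distance between the extracts grew with dose. Of 14955 genes tested, 42 were more than 2-fold higher and 37 more than 2-fold lower with Coptidis Rhizoma at the low dose, 0.281% and 0.247% of the genes. At the medium dose 104 genes (0.695%) were higher and 77 (0.515%) lower, and at the high dose 925 (6.19%) were higher and 990 (6.62%) lower. These single-library ratios have no replicate check. Measured against the mean of the vehicle libraries, 73, 199 and 1999 genes lay beyond 2-fold with Coptidis Rhizoma from the low to the high dose, and 40, 57 and 70 with Zizyphi Fructus. The Zizyphi Fructus libraries thus kept a similar, small number of genes beyond 2-fold of vehicle over the 3 doses, and the high-dose Coptidis Rhizoma library had the most of the 6. Scaling by total counts moved the median ratio at the low dose to -0.12 and left the medium and high medians at 0.02 and 0.05.

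**Figure D1:**
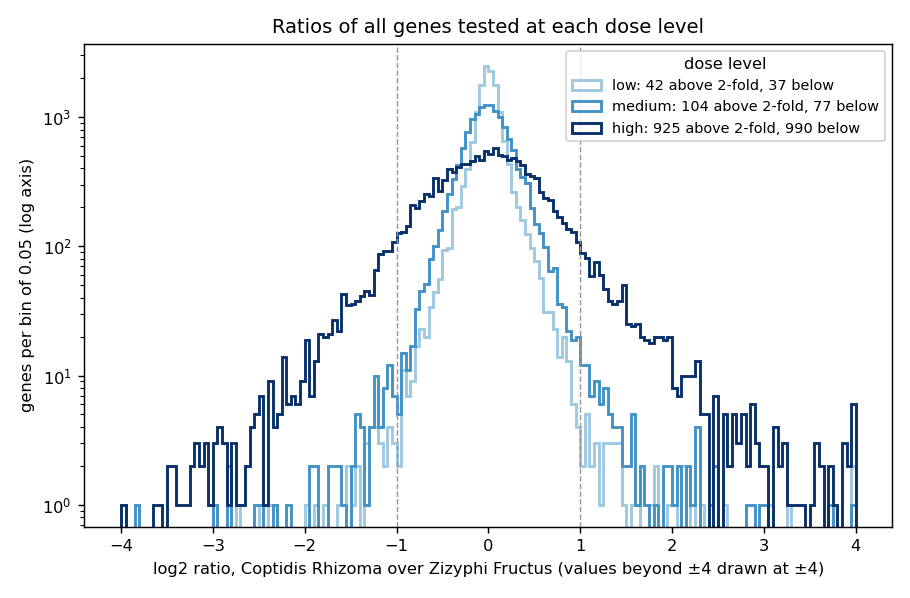
Distribution of log2 ratios of Coptidis Rhizoma over Zizyphi Fructus for the 14955 genes tested, 1 line per dose level, with the number of genes per bin on a log axis and dashed lines at 2-fold. The spread widens with dose, with an SD of 0.23 at the low, 0.33 at the medium and 0.72 at the high dose.

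Tests over these 6 libraries alone called no gene. With the 3 doses of each extract as 3 samples, edgeR's quasi-likelihood test gave a smallest adjusted p of 0.207. At an unadjusted p under 0.05 it gave 659 genes higher (4.41%) and 289 lower (1.93%), and DESeq2 called 23 genes. The doses are not replicates of each other, and the response to dose enters the spread of this test, whose common biological coefficient of variation was 0.202. The test of a difference in dose slope likewise called no gene, with a smallest adjusted p of 0.116, with 2122 genes at an unadjusted p under 0.05 (7.7% of genes higher and 6.49% lower) and with 261 calls by DESeq2. Levels of the 2 extracts did not overlap in 1531 genes with every Coptidis Rhizoma library above (10.2%) and in 1570 with every one below (10.5%).

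A further fit took the spread from all 60 libraries, 19 of whose 25 groups have replicates, and assumed that the 6 single libraries vary like those groups. Its coefficient of variation was 0.0846. In this pooled-spread fit 1957 genes were higher (13.1%) and 2034 lower (13.6%) with Coptidis Rhizoma over the 3 doses. The dose slope was higher in 1865 (12.5%) and lower in 2014 (13.5%). Without the high-dose pair, a setting added after the data were seen, 146 genes (0.976%) were higher and 74 (0.495%) lower. Of the 3991 genes (26.7%) called over the 3 doses, 211 were among them, and 3891 were also called without the low-dose pair, where 16.7% of genes were higher and 17.1% lower. "Rose" and "fell" below refer to this pooled-spread fit, its log2 difference is the mean over dose levels of Coptidis Rhizoma minus Zizyphi Fructus, and none of these calls was made by the 6-library test.

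CYP1A1, the AhR-induced cytochrome P450 that oxidises polycyclic aromatic compounds, had the widest range among the AhR targets (ENSG00000140465, chr15:74719542-74725610, minus strand, GRCh38). Its level was 1.62, 25.2 and 251 CPM with Coptidis Rhizoma from the low to the high dose, 0.276, 0.438 and 0.58 CPM with Zizyphi Fructus and 0.35, 0.17 and 0.498 CPM in the vehicle libraries. All 3 Coptidis Rhizoma libraries were above the other 6, and the level was higher at each step in dose. The ratio to Zizyphi Fructus was 2.73-fold, 27.4-fold and 232-fold at the 3 dose levels, against only 7, 12 and 11 counts in the Zizyphi Fructus libraries. In the pooled-spread fit CYP1A1 rose by 5.71 ± 0.28 (SE, adjusted p = 5.76e-20) on the log2 scale.

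The 250 bases before the start of CYP1A1 are shown because this gene had the largest high-dose ratio among all list members (RefSeq, chr15:74725529-74725778, minus strand, GRCh38.p14, 5′ to 3′). Capitals mark GCGTG, the core that AhR and its partner ARNT bind, whose first base lies 57 bases before the RefSeq start. That start lies inside the gene interval given above, which comes from another annotation, so the marked core falls within that interval.
CYP1A1: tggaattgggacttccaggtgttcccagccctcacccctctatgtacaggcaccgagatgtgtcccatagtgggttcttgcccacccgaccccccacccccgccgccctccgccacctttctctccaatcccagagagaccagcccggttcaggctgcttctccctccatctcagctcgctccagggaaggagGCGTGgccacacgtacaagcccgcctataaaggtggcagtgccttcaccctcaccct
GCGTG was searched on both strands and occurs in 32.2% of 35116 such windows. By gene, a match in any window counted. It was in 7 of 10 AhR list genes with an entry, which have 1 to 3 windows each, and in 36.2% of 27305 genes. A gene with more windows has more chances of a match, and windows per gene were not equalised. The 7 include ALDH1A3 and TIPARP, and also AHRR and UGT1A6, which differed little, while NQO1 has no match.

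CYP1B1, the family member that hydroxylates oestrogens, stood at 93.1, 199 and 482 CPM with Coptidis Rhizoma against 50.5, 50.9 and 55.5 CPM with Zizyphi Fructus. It was high in every Coptidis Rhizoma library, with no overlap, and rose by 1.99 ± 0.07 (SE, adjusted p = 1.08e-23). ALDH1A3, which makes retinoic acid, had 30.7, 56.2 and 66.8 CPM against 18.3, 19 and 19.5 CPM and rose by 1.37 ± 0.07 (SE, adjusted p = 1.44e-19). TIPARP, an ADP-ribosyltransferase that restrains AhR, had 89.8, 126 and 299.5 CPM against 76.7, 76 and 83.8 CPM. Its ratio passed 2-fold at the high dose only. ALDH3A1, an aldehyde dehydrogenase, went another way over dose: 27.7, 47.7 and 31.9 CPM against 17.7, 19.4 and 21.5 CPM, with its widest ratio at the medium dose. AHRR, the AhR repressor, had 3.72, 4.34 and 7.16 CPM against 4.69, 5.4 and 5.38 CPM, below Zizyphi Fructus at the low and medium doses and above it at the high dose. UGT1A6, a glucuronosyltransferase whose reads are shared with the other UGT1A genes, differed little, with log2 ratios of 0.27, 0.32 and 0.34 from the low to the high dose.

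Of the 12 genes of the AhR list, 10 were tested and CYP1A2 and LRAT had no counts. At the low, medium and high dose 1, 5 and 6 members were more than 2-fold higher, where 0.281%, 0.695% and 6.19% of all genes were, and none was lower. The median log2 ratio was 0.30, 0.90 and 1.58, where that of all genes was 0 at each dose. In the pooled-spread fit 9 of 10 rose, against 13.1% of all genes, and none fell. Without the high-dose pair 6 rose, against 0.976%. In 8 of 10 every Coptidis Rhizoma library lay above every Zizyphi Fructus library, against 10.2% of all genes. Against the vehicle mean, the list's median was 0.25, 0.89 and 1.55 with Coptidis Rhizoma and between -0.10 and 0 with Zizyphi Fructus.

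**Figure D2:**
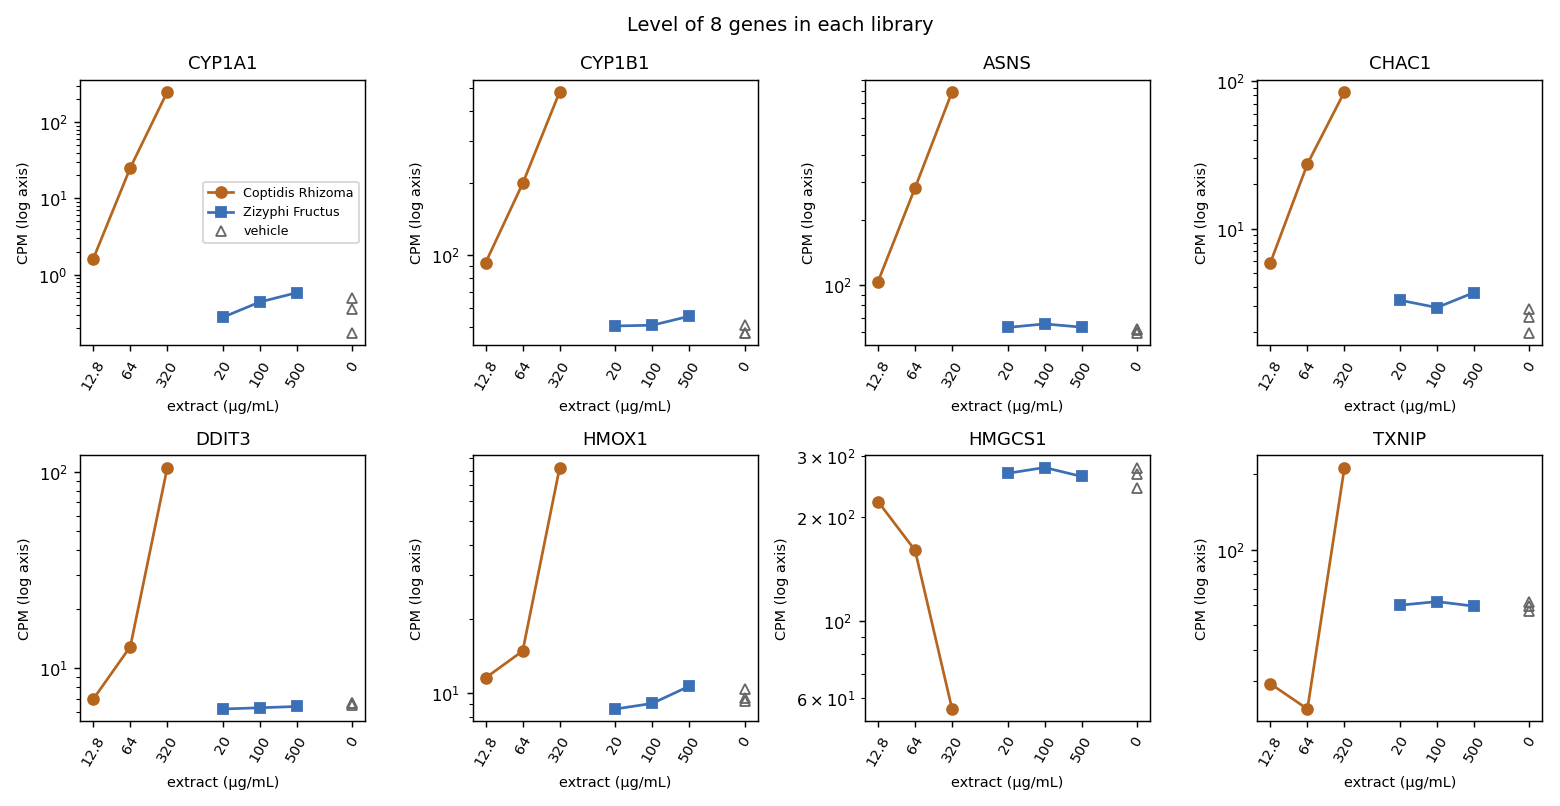
CPM (log axis) of 8 genes against dose in µg/mL, with Coptidis Rhizoma as circles, Zizyphi Fructus as squares and the 3 vehicle libraries as triangles at 0, each point being 1 library. CYP1A1, CYP1B1, ASNS and CHAC1 climb at each Coptidis Rhizoma dose while the Zizyphi Fructus points stay near vehicle, HMGCS1 descends, and TXNIP lies below Zizyphi Fructus at 12.8 and 64 µg/mL and above it at 320 µg/mL.

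The integrated stress response list showed the widest median ratio of the 33 lists at the high dose. DDIT3, which encodes the stress factor CHOP, had 6.96, 12.9 and 106 CPM with Coptidis Rhizoma, 6.19, 6.28 and 6.38 CPM with Zizyphi Fructus and 6.49, 6.67 and 6.63 CPM in vehicle. Its low-dose level was close to both, and the high-dose level was 15.4-fold that of Zizyphi Fructus. CHAC1, a glutathione-degrading enzyme, moved at every dose, with 5.88, 27.4 and 84.2 CPM against 3.27, 2.92 and 3.69 CPM, and rose by 2.86 ± 0.15 (SE, adjusted p = 2.54e-19). DDIT4, an inhibitor of mTORC1 signalling, had 25.8, 93.1 and 271 CPM against 21.4, 19.6 and 19.7 CPM and rose by 2.10 ± 0.10 (SE, adjusted p = 6.83e-21). TRIB3, a pseudokinase induced by CHOP and ATF4, had 56.5, 129.5 and 484 CPM against 47.3, 43.7 and 45.6 CPM and rose by 1.75 ± 0.08 (SE, adjusted p = 1.62e-21). These 3 genes were already 8.15-fold, 4.64-fold and 2.94-fold higher at the medium dose. SESN2, a leucine sensor that also holds mTORC1 down, had 17.3, 41.4 and 145 CPM against 12.7, 11.3 and 12.3 CPM. ATF3, a stress-induced transcriptional repressor, had 3, 5.35 and 47.8 CPM against 2.8, 2.45 and 2.74 CPM.

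ATF4 itself, regulated largely in translation, had 275, 429 and 418 CPM against 246, 238 and 238 CPM and did not pass 2-fold at any dose, though it rose by 0.61 ± 0.09 (SE, adjusted p = 7.1e-07). PPP1R15A, the phosphatase subunit that ends the response, had 29.8, 39 and 238 CPM against 34.4, 30.1 and 33.6 CPM. The medium-dose level was close to Zizyphi Fructus and the high-dose level 6.99-fold above it. GDF15, a secreted stress cytokine, was alike, at 44.9, 57.1 and 288 CPM against 43.3, 43.8 and 45.3 CPM, and rose by 1.04 ± 0.12 (SE, adjusted p = 1.33e-08), though without the high-dose pair it stood at 0.22 (adjusted p = 0.7). ATF5, an ATF4-related factor also controlled in translation, was the exception of the list, with log2 ratios of 0.01, -0.34 and -0.19 and no call.

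Of 18 members 16 were tested, with STC2 and FGF21 too low. At the low, medium and high dose 0, 8 and 14 were more than 2-fold higher and none lower, with a median log2 ratio of 0.18, 1.03 and 3.18. Among all genes 0.281%, 0.695% and 6.19% were that much higher. With the pooled spread 15 rose, against 13.1% of all genes, and none fell. Without the high-dose pair 10 rose, against 0.976%. Levels did not overlap in 13 of 16, all with Coptidis Rhizoma above, against 10.2% of all genes. The slope per 5-fold dose step was also higher with Coptidis Rhizoma in 15 of 16, against 12.5% of all genes. The difference was, for instance, 1.76 ± 0.12 (SE, adjusted p = 1.47e-15) for DDIT4 and 1.58 ± 0.09 (SE, adjusted p = 4.13e-17) for TRIB3 on the log2 scale.

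Amino acid genes moved with this list. ASNS, asparagine synthetase, had 103, 283 and 792 CPM with Coptidis Rhizoma against 63.2, 65.6 and 63.4 CPM with Zizyphi Fructus and 62.1, 61.6 and 59.3 CPM in vehicle. It rose by 2.16 ± 0.06 (SE, adjusted p = 2.35e-28), and its slope differed by 1.47 ± 0.07 (SE, adjusted p = 3.45e-19). PSAT1, the aminotransferase of serine synthesis, stood at 148, 306 and 645 CPM against 105, 107 and 101 CPM. PHGDH, the first enzyme of that pathway, stood at 38.1, 76.8 and 84.4 CPM against 33.6, 30.2 and 29.1 CPM. PHGDH had most of its ratio by the medium dose (0.18, 1.33 and 1.52 on the log2 scale), while PSAT1 went on climbing to the high dose. The mitochondrial folate enzyme MTHFD2 had 165, 258 and 503 CPM against 151, 151 and 141 CPM. Cytosolic enzymes of folate metabolism went the other way at the high dose. MTHFD1 had 151, 131 and 62.6 CPM against 147, 142 and 143 CPM and fell by 0.42 ± 0.05 (SE, adjusted p = 1.12e-08). SHMT1, the cytosolic serine hydroxymethyltransferase, had 67.2, 62.6 and 34.8 CPM against 68.1, 66.3 and 65 CPM and fell by 0.33 ± 0.06 (SE, adjusted p = 2.34e-05), and without the high-dose pair these 2 genes stood at -0.04 (adjusted p = 0.906) and -0.05 (adjusted p = 0.891). Of 12 serine and one-carbon genes tested, 9 were more than 2-fold higher and 1 lower at the high dose, against 6.19% and 6.62% of all genes. In the pooled-spread fit 9 rose and 2 fell, where 13.1% and 13.6% of all genes did, the 2 falls being near that share. CBS of this list was not tested.

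SLC6A9, the glycine transporter GLYT1, was 1 of 6 genes (0.0401%) more than 2-fold higher at all 3 dose levels, with 1.74, 9.49 and 67.4 CPM against 0.591, 0.767 and 0.738 CPM. The other genes of that kind were CYP1A1, MT-RNR1 and 3 low transcripts, AL669918.1, FP236241.1 and LINC01133. AL669918.1 and FP236241.1 were not called in the pooled-spread fit (adjusted p = 0.182 and 0.189). Their counts varied widely among the vehicle libraries, at 36, 0 and 42 and at 2, 77 and 10. SLC7A11, the cystine transporter, had 202, 337 and 1004 CPM against 155, 149.9 and 163 CPM and rose by 1.39 ± 0.12 (SE, adjusted p = 1.44e-12). SLC7A5, the large neutral amino acid transporter, had 327, 574 and 851 CPM against 260.2, 271 and 289 CPM.

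Among the 18 cytosolic aminoacyl-tRNA synthetases, enzymes that charge tRNA with amino acids, 11 were more than 2-fold higher and 1 lower at the high dose, with a median log2 ratio of 0.14, 0.46 and 1.09. The high-dose shares of all genes were 6.19% higher and 6.62% lower. With the pooled spread 12 rose and 1 fell, where 13.1% and 13.6% of all genes did. Without the high-dose pair 11 rose, against 0.976%. AARS (AARS1 in current usage), the alanine enzyme, had 176, 280.2 and 525 CPM against 149.9, 152 and 145 CPM. SARS, the serine enzyme, had 124, 205 and 435 CPM against 108, 109 and 106 CPM, and both climbed at each dose. WARS, the tryptophan enzyme and also an interferon-induced gene, stood at 110.3, 160.2 and 596 CPM against 103, 104 and 99.1 CPM, with most of its ratio at the high dose. VARS was the member that fell, at 239, 251 and 89.3 CPM against 235, 237 and 244 CPM. HARS, KARS, DARS, QARS and RARS were not called, with high-dose log2 ratios of 0.01, -0.08, 0.04, -0.10 and -0.14.

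Promoter windows of 3 of these genes are shown because they hold TGATGNAAN, the composite element that C/EBP and ATF4 dimers bind, and each gene had a higher ratio at each step in dose, with low-dose log2 ratios of 0.71, 0.76 and 0.23 in the order shown (RefSeq, GRCh38.p14, 250 bases before the start, 5′ to 3′ on the gene's strand, match in capitals). They lie at chr7:97872409-97872658, minus strand (ASNS), chr15:40953221-40953470, plus strand (CHAC1) and chr16:70289507-70289756, minus strand (AARS1).
ASNS: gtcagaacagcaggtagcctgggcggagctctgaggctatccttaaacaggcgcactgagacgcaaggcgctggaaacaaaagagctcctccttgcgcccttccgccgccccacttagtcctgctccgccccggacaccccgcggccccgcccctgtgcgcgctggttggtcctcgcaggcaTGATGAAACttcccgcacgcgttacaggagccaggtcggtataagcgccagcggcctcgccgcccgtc
CHAC1: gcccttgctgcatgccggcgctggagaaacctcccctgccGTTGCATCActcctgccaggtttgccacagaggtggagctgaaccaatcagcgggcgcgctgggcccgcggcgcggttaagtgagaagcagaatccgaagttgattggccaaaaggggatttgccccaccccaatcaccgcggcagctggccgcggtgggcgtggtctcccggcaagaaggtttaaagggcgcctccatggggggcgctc
AARS1: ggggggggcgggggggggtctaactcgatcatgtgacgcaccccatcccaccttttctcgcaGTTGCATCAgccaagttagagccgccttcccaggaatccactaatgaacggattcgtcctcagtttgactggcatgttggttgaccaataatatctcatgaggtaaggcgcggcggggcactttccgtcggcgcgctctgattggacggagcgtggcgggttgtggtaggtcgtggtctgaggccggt
The match begins 68 bases before the start in ASNS, and lies on the other strand, 210 and 188 bases before it, in CHAC1 and AARS1. TGATGNAAN was searched on both strands and occurs in 3.13% of 35116 windows, and by gene in 3.87% of 27305 genes and in 10 of the 41 stress response, serine and one-carbon and synthetase genes with an entry. TRIB3, DDIT3, DDIT4, SESN2 and PSAT1, all higher above, have no match in these windows.

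Targets of NRF2, a transcription factor that responds to electrophiles and oxidants, moved mostly at the high dose. HMOX1, haem oxygenase 1, had 11.5, 14.8 and 82.4 CPM against 8.6, 9.06 and 10.6 CPM and rose by 1.36 ± 0.10 (SE, adjusted p = 1.66e-14). The aldo-keto reductases AKR1C1 and AKR1C2, whose reads cannot be separated with certainty, had 15.2, 25.1 and 151 CPM against 13.4, 12.3 and 15.9 CPM and 13.4, 21.1 and 77.9 CPM against 9.66, 8.18 and 10 CPM, already about or above 2-fold at the medium dose. TXNRD1, a thioredoxin reductase, stayed nearer to Zizyphi Fructus at the low and medium doses, at 389, 429 and 1164 CPM against 348, 348 and 355 CPM. GCLC, of glutathione synthesis, had 91.3, 92.5 and 262 CPM against 84.7, 82.8 and 82.6 CPM. NQO1, shared with the AhR list, was 580.3, 734 and 1633 CPM against 521, 525 and 538 CPM. All 24 members were tested: 0, 2 and 12 were more than 2-fold higher from the low to the high dose and none lower. The shares of all genes more than 2-fold higher were 0.281%, 0.695% and 6.19%. In the pooled-spread fit 19 rose and 1, PRDX1, fell, where 13.1% and 13.6% of all genes did. Without the high-dose pair 4 rose, against 0.976%. TALDO1 and PRDX1 were the 2 members below Zizyphi Fructus at the high dose, with log2 ratios of -0.40 and -0.42.

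Transcripts of the mitochondrial genome split between ribosomal and messenger RNA. MT-RNR1, the small ribosomal RNA, had 21014, 13320.2 and 2887 CPM with Coptidis Rhizoma from the low to the high dose, 995, 989.6 and 1109 CPM with Zizyphi Fructus and 1442, 1242 and 1303 CPM in vehicle. MT-RNR2, the large one, had 85763, 28142 and 11924 CPM against 8777, 8707 and 10116 CPM and 10708, 9684 and 9847 CPM in vehicle. Both were highest at the lowest dose and came closer to Zizyphi Fructus as the dose went up, with log2 ratios of 4.40, 3.75 and 1.38 and 3.29, 1.69 and 0.24. They rose by 3.18 ± 0.17 (SE, adjusted p = 1.59e-18) and 1.74 ± 0.15 (SE, adjusted p = 1.41e-12), and the slope difference of MT-RNR2 was -1.52 ± 0.18 (SE, adjusted p = 9.24e-09).

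Messenger RNAs of the same genome were mostly lower. MT-CO3, a subunit of cytochrome c oxidase, had 3960.5, 3135 and 3351 CPM against 10788, 10405 and 13215 CPM, more than 2-fold lower at all 3 doses. MT-ND4L, a complex I subunit whose gene overlaps MT-ND4, was lower throughout too, at 491, 295 and 200.5 CPM against 1105, 1104 and 1107 CPM, and their log2 differences were -1.72 ± 0.16 (SE, adjusted p = 1.1e-11) and -1.84 ± 0.20 (SE, adjusted p = 6.73e-10). The antisense transcript AL139099.1, with 0 counts at the low and medium Coptidis Rhizoma doses, completes the 3 genes (0.0201%) more than 2-fold lower at every level. It had 100, 78 and 0 counts in the vehicle libraries and was not called in the pooled-spread fit (adjusted p = 0.303). MT-CO1, the catalytic subunit of the oxidase, had 8803, 5440.0 and 4159 CPM against 16216, 14196 and 17987 CPM. It was below every Zizyphi Fructus library at 12.8 µg/mL already.

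MT-ND5 and MT-ND6, complex I subunits encoded next to each other on opposite strands, did not follow the other messengers at the low dose. MT-ND5 had 11137, 1094 and 574 CPM against 2778, 2601 and 3414 CPM, and MT-ND6 963, 179 and 99.4 CPM against 219, 259 and 338 CPM. They were 4.01-fold and 4.39-fold higher at the low dose and lower at the medium and high doses, with high-dose log2 ratios of -2.57 and -1.76. Whether counting used strand is not stated. MT-CYB, MT-ND1 and MT-ND2 were likewise above Zizyphi Fructus at the low dose, by less, and below it at the high dose, with low-dose log2 ratios of 0.47, 0.51 and 0.55 and high-dose ratios of -2.21, -1.94 and -2.23.

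**Figure D3:**
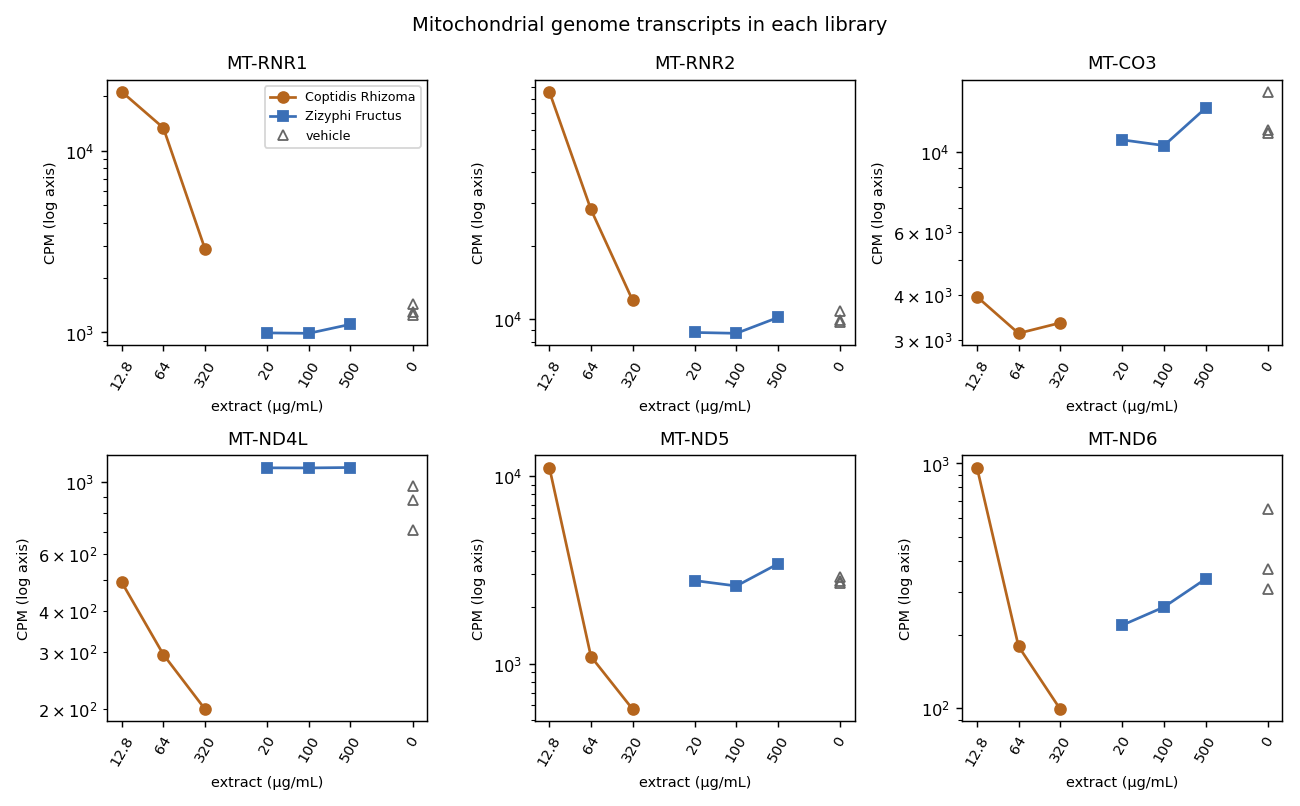
CPM (log axis) of 6 mitochondrial transcripts against dose in µg/mL, with Coptidis Rhizoma as circles, Zizyphi Fructus as squares and vehicle as triangles at 0, each point being 1 library. The ribosomal RNAs start far above Zizyphi Fructus at 12.8 µg/mL and descend, MT-CO3 and MT-ND4L are below it at every dose, and MT-ND5 and MT-ND6 cross from above to below.

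All 15 transcripts of this list were tested. At the low dose 4 were more than 2-fold higher and 2 lower, at the medium dose 2 and 12, and at the high dose 1 and 13. For all genes the shares were 0.281%, 0.695% and 6.19% higher and 0.247%, 0.515% and 6.62% lower. The pooled-spread fit called 2 higher and 12 lower over the 3 doses, against 13.1% and 13.6% of all genes, the 2 higher being near that share. Without the high-dose pair it called 2 higher and 7 lower, against 0.976% and 0.495%. The low-dose Coptidis Rhizoma library holds the highest mitochondrial share of the series. With that library left out of the contrast, a setting added after the data were seen, MT-RNR1 stood at a log2 difference of 2.60 and MT-CO3 at -1.81. MT-RNR2 moved more, from 1.74 with that library to 1.00 without it. RNA integrity is given by the labels only as a lower bound common to all samples, and its part in these ratios was not tested. The 38 nuclear-encoded complex I subunits had a median log2 ratio of -0.02, -0.22 and 0.03, with none beyond 2-fold at any dose. In the pooled-spread fit 2 were lower and none higher, below the 13.6% and 13.1% of all genes.

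Genes of cholesterol synthesis and uptake, driven by SREBP2, were lower. HMGCS1, the synthase before the rate-limiting step, had 222, 160.1 and 55.6 CPM against 268, 278 and 262 CPM and 243, 266 and 278 CPM in vehicle. All 3 Coptidis Rhizoma libraries were below all Zizyphi Fructus and vehicle libraries, and the gene fell by 1.10 ± 0.11 (SE, adjusted p = 6.45e-11) on the log2 scale. INSIG1, which retains the SREBP complex, had 141, 122 and 41.8 CPM against 181, 177 and 168 CPM and was lower at each dose. Of 22 members, all tested, 0, 0 and 14 were more than 2-fold lower from the low to the high dose, none was higher, and the median log2 ratio was -0.11, -0.38 and -1.19. Among all genes 0.247%, 0.515% and 6.62% were that much lower. All 22 fell in the pooled-spread fit, against 13.6% of all genes, 5 of them also without the high-dose pair, against 0.495%. Fatty acid synthesis genes were called less uniformly, with 1 higher and 6 lower of 10 tested, against 13.1% and 13.6% of all genes. Their high-dose median was -0.77, and none was called without the high-dose pair.

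DNA replication genes were near Zizyphi Fructus at the low and medium doses and lower at the high dose. MCM5, a subunit of the replicative helicase, had 112, 115 and 31.1 CPM against 111, 115 and 113 CPM. UHRF1, which keeps DNA methylation through replication, had 99.7, 105 and 22.1 CPM against 102, 99 and 101 CPM. RRM2, a ribonucleotide reductase subunit, was the one that also stood lower at the medium dose, at 278, 239 and 85.3 CPM against 294, 305 and 310.2 CPM. E2F1, the transcription factor of the G1 to S transition, was slightly above Zizyphi Fructus at the first 2 doses and then lower, at 70.4, 73.4 and 16.5 CPM against 64.4, 63.6 and 60.2 CPM. The list of 26 had 0, 0 and 20 members more than 2-fold lower and none higher, with a median log2 ratio of -0.02, -0.05 and -1.36. The shares of all genes more than 2-fold lower were 0.247%, 0.515% and 6.62%. By the pooled-spread fit 23 fell, against 13.6% of all genes, and 25 had a lower slope, against 13.5%. Without the high-dose pair 1, RRM2, fell, against 0.495%. The 22 mitosis genes had no member beyond 2-fold and a high-dose median of -0.39, and 10 fell and none rose, where 13.6% of all genes fell. None of these 22 was called without the high-dose pair. CDKN1A, the p21 inhibitor of cyclin-dependent kinases, had 15.5, 15.4 and 91.6 CPM against 14.5, 13.9 and 15 CPM and rose by 0.96 ± 0.09 (SE, adjusted p = 1.65e-11), while MDM2, another p53 target, had log2 ratios of -0.04, -0.16 and 0.09. Without the high-dose pair CDKN1A stood at 0.12 (adjusted p = 0.79). Of 15 p53 targets, 4 rose and 2 fell, the count that fell near the 13.6% of all genes. CCND1, cyclin D1, had 146, 160.3 and 183 CPM against 135, 132 and 141 CPM.

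**Figure D4:**
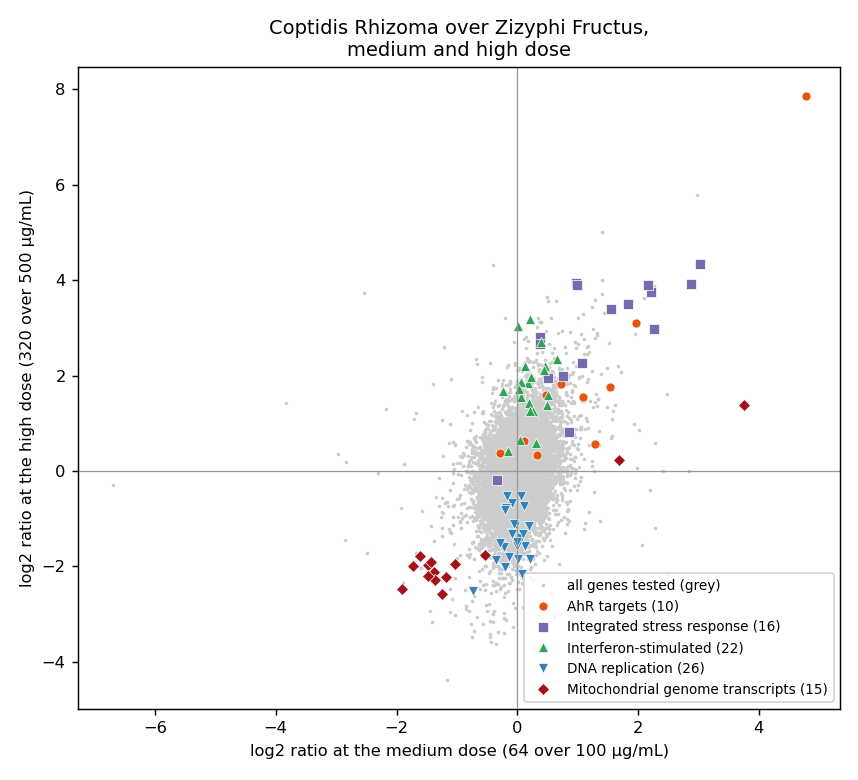
Log2 ratio of Coptidis Rhizoma over Zizyphi Fructus at the medium dose (x axis) and the high dose (y axis), 1 point per gene, with 5 gene lists marked by colour and shape over all genes tested in grey. AhR and stress response genes spread along both axes, interferon and replication genes along the y axis, and most mitochondrial transcripts lie below 0 on both.

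Interferon-stimulated genes were also near Zizyphi Fructus until the high dose. MX1, an antiviral GTPase, had 11.3, 10.9 and 61.4 CPM against 10.8, 8.18 and 9.06 CPM. IFIT1, which binds foreign 5′ RNA ends, had 9.78, 9.04 and 32.6 CPM against 7.18, 6.46 and 6.75 CPM. OAS1, which makes the activator of RNase L, had 36.3, 36 and 119 CPM against 33, 31.9 and 32.8 CPM, and in all 3 genes the high-dose library stood apart from the other 5. All 22 members were tested: 1, 0 and 19 were more than 2-fold higher, with a median log2 ratio of 0.08, 0.21 and 1.78. For all genes the shares more than 2-fold higher were 0.281%, 0.695% and 6.19%. In the pooled-spread fit 20 rose, against 13.1% of all genes. None was called without the high-dose pair.

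Ligands of the EGF receptor, growth factors shed from the cell surface, were higher. AREG had 43.8, 60.2 and 205 CPM against 34.8, 39.4 and 39.2 CPM and rose by 1.11 ± 0.10 (SE, adjusted p = 3.63e-12). EREG had 113, 141 and 473 CPM against 89.2, 96.8 and 98.2 CPM and rose by 1.05 ± 0.11 (SE, adjusted p = 6.04e-10). HBEGF stood at 5.58, 10.3 and 28.5 CPM against 5.95, 6.46 and 7.43 CPM, below Zizyphi Fructus at the low dose. EGFR, ERBB2 and ERBB3, the receptors in the list, had high-dose log2 ratios of 0.17, -0.42 and -0.32 and were not called over the 3 doses. Of the 8 members tested 5 rose, against 13.1% of all genes. Without the high-dose pair 2 did, against 0.976%, and EREG stood at 0.44 (adjusted p = 0.113). The immediate early list followed at smaller size, with 10 of 18 higher, against 13.1% of all genes, and a high-dose median of 0.74. It was led by DUSP5, a nuclear ERK phosphatase, at 3.9, 5 and 24.3 CPM against 3.63, 3.87 and 3.95 CPM. No member of this list was called without the high-dose pair, and DUSP5 stood at 0.24 there (adjusted p = 0.666). FOS had log2 ratios of 0.09, 0.08 and 0.21. CXCL8, the chemokine IL-8, was lower at the low and medium doses and alike at the high dose, at 3.66, 3.03 and 4.99 CPM against 5.13, 5.33 and 5.38 CPM. It did not follow its list, NF-kB and cytokine genes, whose high-dose median log2 ratio was 0.69. Of the 12 tested there, 6 rose and 1 fell, where 13.1% and 13.6% of all genes did. At the high dose 4 were more than 2-fold higher, against 6.19%, and none lower. None rose and 1 fell without the high-dose pair, against 0.976% and 0.495%.

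TXNIP, an arrestin-like protein that limits glucose uptake and binds thioredoxin, changed side with dose. It had 29.3, 23.3 and 212 CPM with Coptidis Rhizoma against 60.1, 62.1 and 59.6 CPM with Zizyphi Fructus and 56.9, 59.7 and 61.9 CPM in vehicle. Its log2 ratios were -1.02, -1.40 and 1.82, so a mean over doses hides 2 opposite directions. ARRDC4, its paralogue and, like it, a target of the glucose-sensing factor MondoA, ran alongside at 5.88, 5.96 and 53 CPM against 10.4, 9.82 and 9.96 CPM. In the pooled-spread fit without the high-dose pair TXNIP fell by 1.23 ± 0.06 (SE, adjusted p = 1.38e-18). From the low to the high dose its slope per step was higher by 1.44 ± 0.06 (SE, adjusted p = 8.06e-22) in the pooled-spread fit. High against medium dose gave 3.25 and medium against low dose -0.38.

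Several intestinal markers were lower at the high dose. LGR5, a stem cell marker and receptor for R-spondins, had 34.1, 32.5 and 8.41 CPM against 41, 38.8 and 41.6 CPM. CD44, an adhesion receptor and Wnt target, had 543, 463 and 128 CPM against 566, 560.3 and 563 CPM. AXIN2, another Wnt target, did not share that direction, at 72.1, 80.6 and 92 CPM against 70.7, 68.5 and 71.9 CPM. The goblet cell mucin MUC2 had 36.6, 28.9 and 7.12 CPM against 35.8, 31.8 and 38.4 CPM. ATOH1, the factor that sets the secretory lineage, had 5.22, 2.27 and 0.152 CPM against 5.09, 7.01 and 4.48 CPM. ATOH1 was already lower at the medium dose. CEACAM6, an adhesion protein of enterocytes, had 30.7, 28.8 and 6.85 CPM against 30.7, 28.7 and 36.3 CPM, whereas KRT20, a keratin of mature enterocytes, was above Zizyphi Fructus at the high dose, at 241, 222 and 361 CPM against 254, 249 and 232 CPM. At the high dose 6 of 12 secretory, 4 of 12 Wnt and stem cell and 4 of 9 enterocyte genes tested were more than 2-fold lower. None was higher, and 6.62% of all genes were lower. The pooled-spread fit called 7 lower of the secretory list, 5 lower and 1 higher of the Wnt list, and 5 lower and 1 higher of the enterocyte list. Of all genes it called 13.6% lower and 13.1% higher. Without the high-dose pair it called 2 lower of the secretory list, against 0.495% of all genes, and none of the Wnt or enterocyte list.

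Other lists had few members beyond 2-fold or moved both ways. Of 32 ribosomal protein genes none was beyond 2-fold or called. Of 15 cytosolic heat shock genes none was more than 2-fold higher at any dose. At the high dose 2 were more than 2-fold lower, against 6.62% of all genes, and 4 fell over the 3 doses, against 13.6%. Among 18 endoplasmic reticulum chaperones and unfolded protein response genes, 4 were more than 2-fold higher and 1 lower at the high dose, with a median log2 ratio of 0.04. Of all genes 6.19% were higher and 6.62% lower. In the pooled-spread fit 5 rose and 6 fell, against 13.1% and 13.6% of all genes. Neither this list nor the heat shock list had a call without the high-dose pair. Of 15 drug efflux and metabolism genes 3 rose and 2 fell, close to the 13.1% and 13.6% of all genes. More than 2-fold lower at the high dose were 2, against 6.62% of all genes. ABCB1, the efflux pump P-glycoprotein, had 1.26, 1.26 and 1.29 CPM against 0.946, 0.876 and 1.11 CPM and was not called (adjusted p = 0.287).

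**Figure D5:**
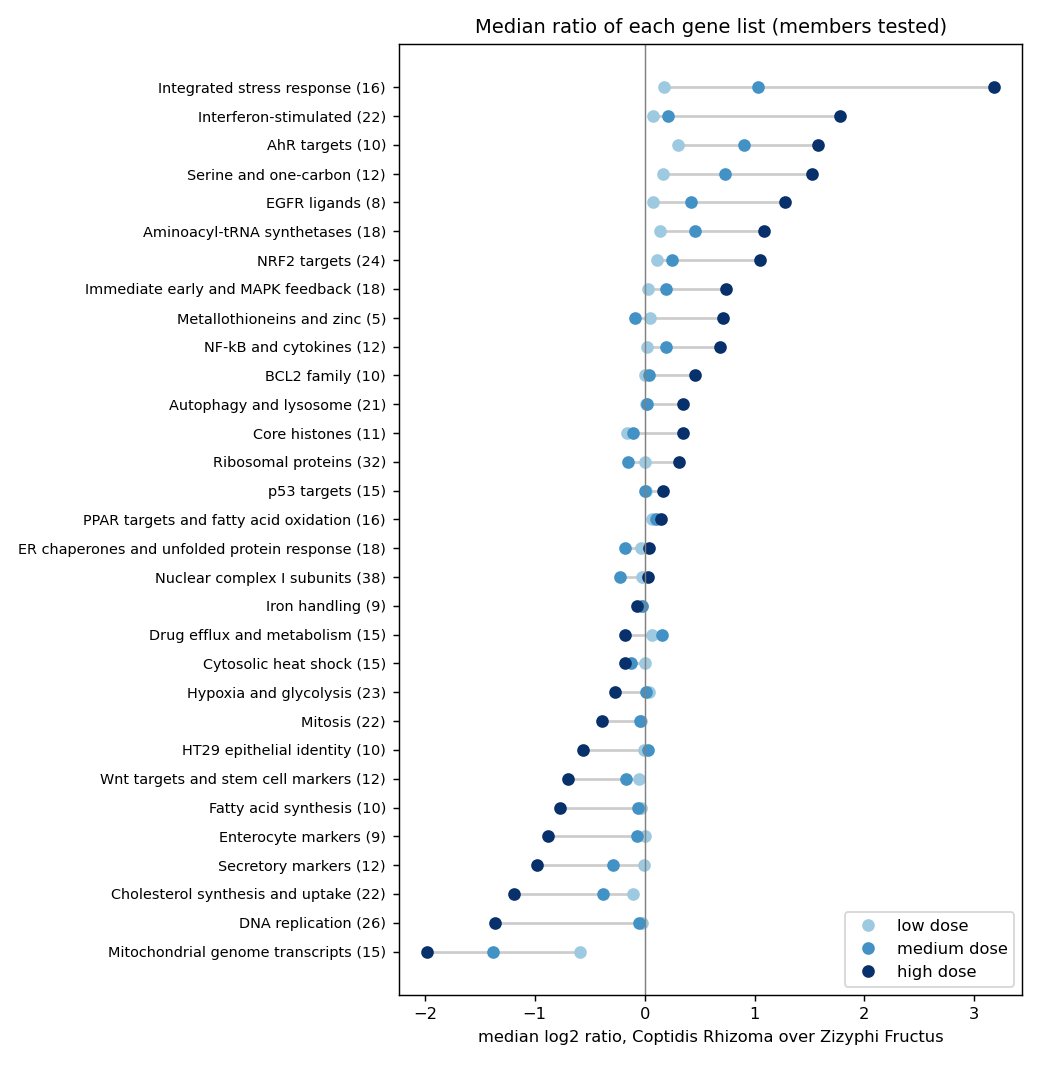
Median log2 ratio of Coptidis Rhizoma over Zizyphi Fructus of each gene list with at least 5 members tested (number tested in brackets), with 1 dot per dose level. The integrated stress response has the highest median at the high dose (3.18) and mitochondrial transcripts the lowest (-1.98).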

How the data were processed

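The authors deposited 1 table of expected counts per gene and library (60675 genes). Per the labels' protocols, total RNA was made into libraries with a directional kit and sequenced as paired reads on an MGIseq instrument. The submitters' processing notes name hg38 (GRCh38), RSEM 1.3.3, STAR 2.7.3a, FastQC 0.11.9 and Trim Galore 0.6.5. The sources used here do not state the annotation release, the strand setting or any gene filter. Samples are the columns whose codes match the labels, and 210 other columns were not used.

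Expected counts were rounded to whole numbers (90.0% to 92.1% of values were whole before). Symbols and positions came from GENCODE 29, which holds 57055 of the IDs. Library totals were 18.02 to 35.82 M over the 60 libraries. Intervals and p-values cover only the spread between these libraries, which may be technical.

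In R 4.3.3, edgeR 4.0.16 (filterByExpr, TMM, glmQLFit, glmQLFTest, Benjamini-Hochberg at 0.05) compared the 3 Coptidis Rhizoma with the 3 Zizyphi Fructus libraries with no block, and then their slopes per dose step. The first fit had 4 residual degrees of freedom and the second 2. The pooled-spread fit held all 60 libraries in 25 groups (35 residual degrees of freedom). Its slope is the change from the low to the high dose per step, in which the medium dose has no weight. SEs of log2 differences were taken as the difference divided by the square root of its F. Ratios at a dose level used TMM CPM plus 0.5 and have no test. Alternatives were DESeq2 1.42.0, its size factors, other filters, pseudocounts and thresholds, a block by dose level and each library left out. The scripts were tested on simulated data.

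The members and the 33 gene lists (553 genes, of which 499 were tested) were chosen with earlier results of these data known. Lists are described by counts and medians, without a set test. Named genes are, by rule, genes beyond 2-fold in 1 direction at all 3 dose levels, the members of each list with the smallest p (up to 4), and 16 panel genes. The rule's largest changes among called genes gave no name, since no gene was called. Other list members named were chosen after their values were seen, and some genes the rules select are not reported here. Genes with near-identical copies share reads. Promoter windows came from RefSeq for GRCh38.p14.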

Additional observations from a re-analysis of the deposited data

Results flagged for a closer look

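The dose slope differed between Coptidis Rhizoma and Zizyphi Fructus in 3879 genes when the spread was taken from all 60 libraries. This was tested as the change per step from the low to the high dose, Coptidis Rhizoma minus Zizyphi Fructus. For the interaction of extract and dose step the 6 libraries alone called 0 genes with edgeR, with 2122 at an unadjusted p under 0.05 and 261 called by DESeq2. Between the medium and high dose the pooled-spread term called 3708 genes, and between the low and medium dose 36.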

How the results depend on the processing

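The counts of calls depended on the fit. For the 3 against 3 comparison the pooled-spread fit changes more than the source of the spread. It averages log2 ratios over dose levels, where the 6-library test compares 1 mean per extract. Log2 differences moved with it, from 2.617 to 2.157 for ASNS and from 7.765 to 5.705 for CYP1A1. For the 3 against 3 test, which called 0 genes, DESeq2 called 23, no low-count filter 1, DESeq2 size factors 0, the spread of all 60 libraries 3991, and leaving out 1 library 0 to 4. All 6 libraries carry replicate number 1, so the labels pair none of them, and the replicate block by dose level also called 0. Settings added after the data were seen gave, in the pooled-spread fit, 5055 calls without the low, 4235 without the medium and 220 without the high dose of both extracts, 5690 with the low-dose Coptidis Rhizoma library left out of the contrast, and 6201 with 57 libraries in the fit (1 vehicle, 1 Pinelliae Tuber and 1 Scutellariae Radix library with unusual mitochondrial or ribosomal protein shares left out). The slope test, with 0 calls, gave 261 with DESeq2, 1635 with no filter, 0 with size factors, 3879 with the spread of all 60 libraries, 6280 with 57 of them, 3708 for high against medium dose and 36 for medium against low dose. Leaving out 1 library gave 9 to 8414 slope calls, with 1 residual degree of freedom and an exact line through 2 doses of 1 extract.

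Genes beyond the fold (79, 181 and 1915 from the low to the high dose, 9 at every dose) numbered 243, 377 and 2522 (21 at every dose) with a pseudocount of 0.1 CPM. With 2 CPM they were 20, 78 and 1251 (3 at every dose), and at a 1.5-fold threshold 376, 859 and 4954 (46 at every dose). Total-count scaling gave 79, 190 and 1927. TXNIP reversed its 3 against 3 sign without the high dose (-1.21 in the 6-library fit without that Coptidis Rhizoma library, -1.23 in the pooled-spread fit without that pair), with the block (-0.27) and with the spread of all 60 or of 57 libraries (-0.20 and -0.21). Its slope reversed without the high-dose Coptidis Rhizoma library (-0.33) and for medium against low dose (-0.38). With 1 library left out the 3 against 3 value ranged up to 0.99 and the slope up to 3.18. Settings without the high dose drop its ratio of opposite sign. The block and the pooled-spread fits average its log2 ratios over dose levels, while the 6-library fit without a block compares 1 mean per extract. These are different quantities, and with ratios of both signs they can differ in sign. Among 71 named genes called over the 3 doses in the pooled-spread fit, 8 had the other sign in another setting of it. They were TXNIP, called with both signs, and, without the high-dose pair and not called there, CA9 (0.05), CEACAM6 (0.00), E2F1 (0.17), MCM5 (0.01), MT-ND5 (0.38), UHRF1 (0.02) and VARS (0.05). Not called over the 3 doses, ARRDC4 ranged from -0.77 to 0.85 and MT-ND6 from -1.14 to 0.80. Of 69 slope calls 11 changed sign, none with a call of the other sign. Low genes such as CYP1A1 with Zizyphi Fructus rest on few counts. Counting intervals cover counting error only.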

Other observations

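BMF, a BCL2 family member that binds and blocks survival proteins, had 8.81, 14.3 and 42.1 CPM with Coptidis Rhizoma from the low to the high dose, against 5.56, 6.13 and 7.27 CPM with Zizyphi Fructus, and rose by 1.48 ± 0.11 (SE, adjusted p = 3.96e-14) on the log2 scale in the pooled-spread fit. It was above every Zizyphi Fructus library at each dose. Of 10 BCL2 family genes 5 rose, against 13.1% of all genes, and none fell. MAP1LC3B, the ubiquitin-like protein of autophagosome membranes, had 49.6, 54.8 and 318 CPM against 47.3, 49.4 and 45.3 CPM, and the high-dose Coptidis Rhizoma library stood apart from the other 5. Of 21 autophagy and lysosome genes, 9 rose and 2 fell, where 13.1% and 13.6% of all genes did. No member of that list was called without the high-dose pair. VEGFA, the angiogenic growth factor, had 89.8, 155 and 481 CPM against 76.4, 77.1 and 76 CPM, with log2 ratios of 0.23, 1.00 and 2.66. CA9, carbonic anhydrase IX and a hypoxia marker, went the other way at the high dose, at 58.7, 61 and 14.4 CPM against 54.6, 61.2 and 59.3 CPM. In the pooled-spread fit the 23 hypoxia and glycolysis genes tested gave 5 higher and 6 lower, against 13.1% and 13.6% of all genes. Of the 16 PPAR target and fatty acid oxidation genes tested, 4 rose and 2 fell, where 13.1% and 13.6% of all genes did, the falls near that share. The median log2 ratio was 0.07, 0.10 and 0.15 from the low to the high dose.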
